A study of Mus musculus with 2 samples.

Results

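The IL-6 family was followed through 10 genes in C2C12 myotubes given exosomes of pancreatic cancer cells. They are 3 cytokines (Il6, Lif, Clcf1), 5 receptor subunits (Il6ra, Il11ra1, Il6st, Lifr, Osmr), the transcription factor Stat3 and its inhibitor Socs3. They were taken by gene name from the array's own annotation, where 20 probes of 60 bases carried these names among the 56605 probes that are not controls. All 10 genes had at least 1 measured probe, that is, a probe flagged by the scanner software as well above background on both arrays.

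C2C12 is a mouse skeletal muscle line, here differentiated from myoblasts to myotubes. The KPC-exo culture received 4 µg of exosomes (membrane vesicles shed by cells) for 24 h. Their source was 1 pancreatic cancer line, grown from tumours of mice carrying KrasLSL-G12D/+, Trp53LSL-R172H/+ and Pdx1-Cre, the last of which drives recombination in the pancreas. The MPDC-exo culture, the control, received the vesicles of MPDC, a murine line of pancreatic duct epithelium, in an amount the sources used here do not give. Each group had 1 array, both cultures received vesicles, and no culture without exosomes is analysed here. Every difference therefore lies between 2 arrays, has no replicate check and carries no p-value.

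IL-6 family cytokines share a signalling subunit, gp130, which Il6st encodes. IL-6 and IL-11 first bind an alpha receptor of their own, while LIF and oncostatin M recruit the LIF or oncostatin M receptor beside gp130. Janus kinases bound to these subunits then phosphorylate STAT3, which enters the nucleus and switches on genes such as Socs3, whose protein blocks the receptor again. In skeletal muscle IL-6 is released during contraction, LIF acts on muscle precursor cells, and IL-6 and STAT3 are widely studied in the muscle wasting of cancer. STAT3 activity depends on phosphorylation, which an array of RNA does not measure.

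Signals are given as log2 relative to the 75th percentile of the same array, which was 639 units on the KPC-exo array and 380 units on the MPDC-exo array. A signal of 0 on this scale thus equals that percentile, and a probe's signal depends on its sequence, so a brighter probe does not mean a more abundant transcript. Brightness serves below only to choose and group probes, and marker sums weight the bright probes most. Each member probe had 1 spot. The error given with a difference, as ±, is 1 standard error propagated from the scanner's error model for both spots and contains no variation between cultures. At the bright member probes it was 0.20 throughout, so it is a value of the model and not a measured spread. Repeated spots of other probes had an SD of 0.026 on the KPC-exo array and 0.028 on the MPDC-exo array. All 12 muscle markers (among them Myog, Ckm and Acta1) were measured on both arrays, with a summed linear signal, in multiples of each array's 75th percentile, of 722 on the KPC-exo array and 701 on the MPDC-exo array. The sum was higher on the KPC-exo array, but the median log2 difference of the 12 was -0.13, with 8 below the median of all genes. Mb (myoglobin) at 0.60, past 1.5-fold, and Cav3 at 0.49 were the highest, and Ckm at -0.44 and Des at -0.41 the lowest. Of 8 ductal epithelial markers 2 were measured (Krt19 and Sox9), summing to 1.37 on the KPC-exo array and 1.48 on the MPDC-exo array, while Epcam, Cdh1, Krt7, Krt8, Krt18 and Muc1 were well above background on neither. Of 7 macrophage markers 6 were measured, summing to 19.4 on the KPC-exo array and 19.0 on the MPDC-exo array, but not Adgre1. Of these, Cd68 was 1.54-fold higher (0.63) and Csf1r 1.84-fold lower (-0.88), so the near-equal sums cover differences in both directions. Of 6 fibroblast markers 5 were measured, summing to 282 on the KPC-exo array and 292 on the MPDC-exo array, while their median log2 difference was 0.22. Col3a1 differed by -0.29 and Lum by -0.20, against 0.37 for Dcn, 0.27 for Pdgfra and 0.22 for Col1a1. Of 4 endothelial markers only Kdr was measured, at 0.269 on the KPC-exo array and 0.283 on the MPDC-exo array. The part of these cell types in the differences below was not tested, and fewer cells of a type cannot be told apart from less RNA per cell.

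Transcripts of the family were close to equal on the KPC-exo and MPDC-exo arrays when each gene was read at its brightest probe. The 10 genes had a median log2 difference (KPC-exo minus MPDC-exo) of 0.01, against 0.06 over all 16913 measured genes. None of the 10 was at least 1.5-fold apart (0.58 on the log2 scale), where 7.38% of all measured genes were. Their differences ran from -0.56 at Clcf1 to 0.42 at Lif, and that of all genes was exceeded by 3 of them and not by the other 7. At the level of single probes, 4 of the 18 measured probes were at least 1.5-fold apart, against 10.1% of all 24962 measured probes. Of these 4, 3 were lower on the KPC-exo array (in Il6st, Osmr and Stat3) and 1 was higher (in Osmr). Each stood beside a brighter probe of the same gene with a log2 difference between -0.05 and 0.19. Both shares vary with signal, here cut into 10 equal classes from the dimmest up. The 4 probes lay in classes 3 and 4, where 19.6% and 14.1% of all measured probes were at least 1.5-fold apart. The brightest probes of all members but Il6, Lif and Clcf1 lay in classes 8 to 10, where from 1.20% to 2.68% were.

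**Figure D1:**
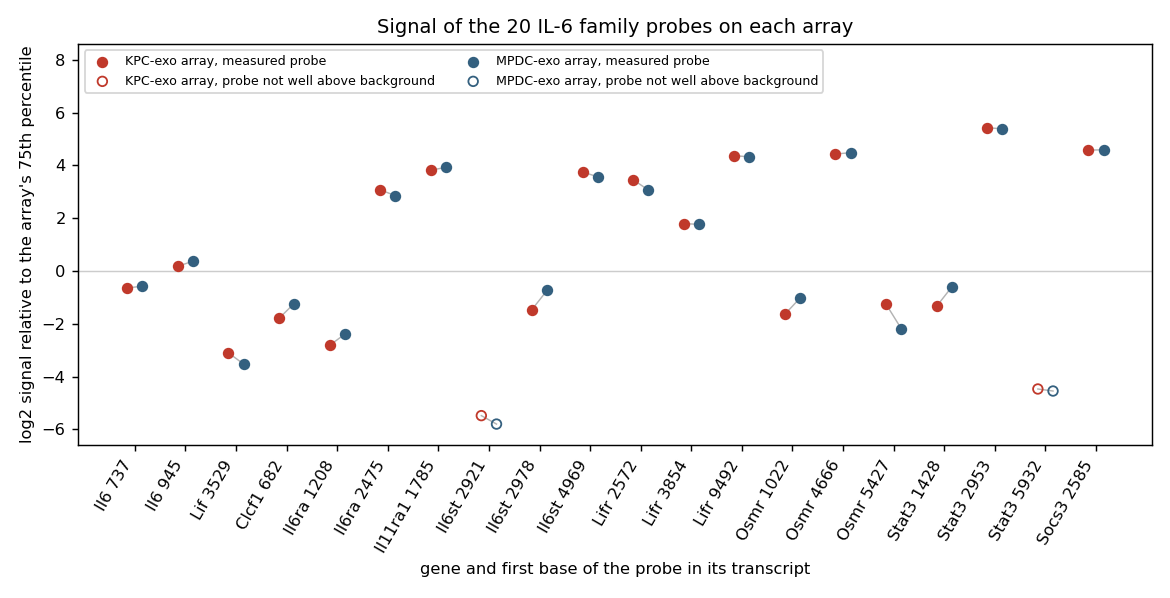
Log2 signal, relative to the 75th percentile of the array, of the 20 probes of the IL-6 family, with the KPC-exo array left and the MPDC-exo array right of each position. Filled points are measured probes and open points are the 2 unmeasured probes, and the number after a gene is the first base of the probe in its transcript. The probes Il6st 2978, Osmr 1022 and Stat3 1428 are lower on the KPC-exo array and Osmr 5427 is higher, while the bright probes of the same genes lie level.

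Of the 18 measured probes, 4 of the 5 with the lowest differences are printed here, and that of Stat3 is not shown. Each is written 5′ to 3′ as on the array, with its position in mm9 as the files give it. In Il6st the capitals mark the stop codon, known from the gene's protein and not from an annotation used here, and the base after it on the probe is left out.
Il6st, from base 2978 of its transcript, chr13:113294595-113294654, plus strand: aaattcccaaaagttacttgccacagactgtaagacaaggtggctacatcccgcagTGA
Osmr, from base 1022, chr15:6791978-6792037, minus strand: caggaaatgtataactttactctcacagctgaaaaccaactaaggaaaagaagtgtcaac
Clcf1, from base 682, chr19:4222480-4222539, plus strand: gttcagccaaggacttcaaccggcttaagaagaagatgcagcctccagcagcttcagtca
Il6ra, from base 1208, chr3:89680743-89680802, minus strand: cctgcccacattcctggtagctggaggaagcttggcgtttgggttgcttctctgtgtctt
Their shares of G and C were 45.8% (Il6st), 36.7% (Osmr), 51.7% (Clcf1) and 55.0% (Il6ra), so the 4 are not alike in base composition.

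Among the cytokines, Il6, the founding member of the family, had a log2 signal of 0.18 on the KPC-exo array and 0.37 on the MPDC-exo array at the probe chr5:30346367-30346426. Its second probe, chr5:30346159-30346218, had -0.64 on the KPC-exo array and -0.58 on the MPDC-exo array. Both probes were slightly lower on the KPC-exo array, by less than their error. The log2 differences were -0.20 ± 0.21 and -0.06 ± 0.21, and the transcript was measured on both arrays. Lif, leukemia inhibitory factor, read 74.4 units on the KPC-exo array and 33.0 units on the MPDC-exo array before scaling, with log2 signals of -3.10 on the KPC-exo array and -3.52 on the MPDC-exo array. This is close to the lowest signal that any probe well above background had, -3.76 on the KPC-exo array and -3.61 on the MPDC-exo array. The log2 difference of Lif was 0.42 ± 0.39 at its only probe, chr11:4172032-4172091. It was -0.04 with normexp background correction, which here also added an offset of 50 units to each signal. That offset exceeds the 33.0 units of Lif on the MPDC-exo array. The sign of Lif thus rests on the correction and the offset together, whose parts were not told apart. Clcf1, which encodes a cytokine that acts through the CNTF receptor complex, had a log2 signal of -1.80 on the KPC-exo array and -1.23 on the MPDC-exo array. It was the lowest of the 10 genes, with a log2 difference of -0.56 ± 0.23, or 1.48-fold lower, at its only probe. In 3 scalings Clcf1 passed 1.5-fold, with log2 differences from -0.62 to -0.64.

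The alpha receptors were level or slightly apart. Il6ra, which binds IL-6 itself, had a log2 signal of 3.08 on the KPC-exo array and 2.85 on the MPDC-exo array at its brighter probe, chr3:89674054-89674113. At the probe from base 1208 it had -2.82 on the KPC-exo array and -2.40 on the MPDC-exo array. The probes thus pointed in opposite directions, with log2 differences of 0.22 ± 0.20 and -0.42 ± 0.29. Il11ra1, the IL-11 receptor alpha chain, had 3.82 on the KPC-exo array and 3.92 on the MPDC-exo array at chr4:41716285-41716344, a log2 difference of -0.10 ± 0.20. Among the transcripts that this probe is listed to match is one of Gm13305, a second gene on the same chromosome, so its signal may not belong to Il11ra1 alone.

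The signalling subunits gave bright signals, but not all of their probes pointed the same way. Il6st had a log2 signal of 3.75 on the KPC-exo array and 3.57 on the MPDC-exo array at chr13:113296586-113296645, a log2 difference of 0.19 ± 0.20. At the probe from base 2978 it had -1.46 on the KPC-exo array and -0.73 on the MPDC-exo array. There Il6st was 1.66-fold lower on the KPC-exo array, with a log2 difference of -0.73 ± 0.22, and the brighter probe, 1991 bases downstream on the same transcript, did not share that direction. The third Il6st probe, named after a GenBank clone, was well above background on neither array.

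Lifr, the LIF receptor, had 3 bright probes. At the probe nearest the 3′ end (chr15:7147319-7147378) the log2 signal was 4.37 on the KPC-exo array and 4.33 on the MPDC-exo array, and at the middle probe (chr15:7141681-7141740) it was 1.80 on the KPC-exo array and 1.77 on the MPDC-exo array. These 2 probes, both annotated to the first Lifr transcript variant, lay level between the arrays, with log2 differences of 0.04 ± 0.20 and 0.03 ± 0.20. The other probe (chr15:7135072-7135131), listed only for the second variant among RefSeq transcripts, had 3.46 on the KPC-exo array and 3.07 on the MPDC-exo array. Its log2 difference was 0.39 ± 0.20, or 1.31-fold higher, and ran from 0.32 to 0.44 over the alternatives other than the spike-in scaling. The local background of the spot nearest the 3′ end was flagged on the KPC-exo array. Without such spots the value of Lifr became that of the second-variant probe, 0.42. The difference between the variants was not tested.

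Osmr, the oncostatin M receptor, had probes past 1.5-fold in both directions. At its brightest probe (chr15:6763686-6763745) the log2 signal was 4.43 on the KPC-exo array and 4.48 on the MPDC-exo array, a log2 difference of -0.05 ± 0.20. At the probe from base 1022 it was -1.64 on the KPC-exo array and -1.02 on the MPDC-exo array, so Osmr was 1.53-fold lower there (-0.62 ± 0.22), or under 1.5-fold with normexp (-0.52) and with flagged local backgrounds left out (-0.58). The third probe (chr15:6804987-6805046) lies nearer the gene's 5′ end than the others and is listed only for an Ensembl transcript and for clones, not for the RefSeq mRNA. It read 267 units on the KPC-exo array and 83.5 units on the MPDC-exo array before scaling, with log2 signals of -1.26 on the KPC-exo array and -2.19 on the MPDC-exo array. This was the largest difference among the members, 1.90-fold higher (0.93 ± 0.24), and with normexp it was 0.53, under 1.5-fold. Among all measured probes in the same class of signal, the third lowest of 10 equal classes, 10.1% were at least 1.5-fold higher and 9.46% at least 1.5-fold lower.

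Stat3, the transcription factor through which the family acts, had a log2 signal of 5.42 on the KPC-exo array and 5.39 on the MPDC-exo array at its brightest probe, chr11:100749598-100749657. The log2 difference there was 0.03 ± 0.20. At the probe from base 1428 Stat3 had -1.33 on the KPC-exo array and -0.60 on the MPDC-exo array, which is 1.66-fold lower (-0.73 ± 0.21), although the files list the same 3 RefSeq transcript variants for both probes. The local background of the bright Stat3 spot was flagged on the KPC-exo array, and without such spots the gene's value became that of the probe from base 1428, -0.70. The third Stat3 probe, not listed for a RefSeq transcript, was well above background on neither array.

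Socs3, the feedback inhibitor that STAT3 switches on, was level: it had a log2 signal of 4.58 on the KPC-exo array and 4.59 on the MPDC-exo array at its only probe, chr11:117827480-117827539. The log2 difference was -0.01 ± 0.20 and ran from -0.07 to 0.02 over the alternatives that gave a value, other than the spike-in scaling. The local background of this spot was flagged on the KPC-exo array, so Socs3 has no value when such spots are left out. STAT factors are known to bind the motif TTCNNNGAA, which reads the same on both strands. It was sought in the RefSeq promoter windows of 250 bases before to 50 bases after each start (build GRCm38.p6), which held 9 of the 10 members, Clcf1 not among them. It stood in the window of Socs3 only, at 154 to 146 bases before the start, and in 8.30% of all 32851 windows. The stretch is shown, because Socs3 is a known target of STAT3, with the motif in capitals:
Socs3 promoter, chr11:117969502-117969530, minus strand, GRCm38.p6: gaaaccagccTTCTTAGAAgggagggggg
The match is a description of these letters and not a measured binding site.

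**Figure D2:**
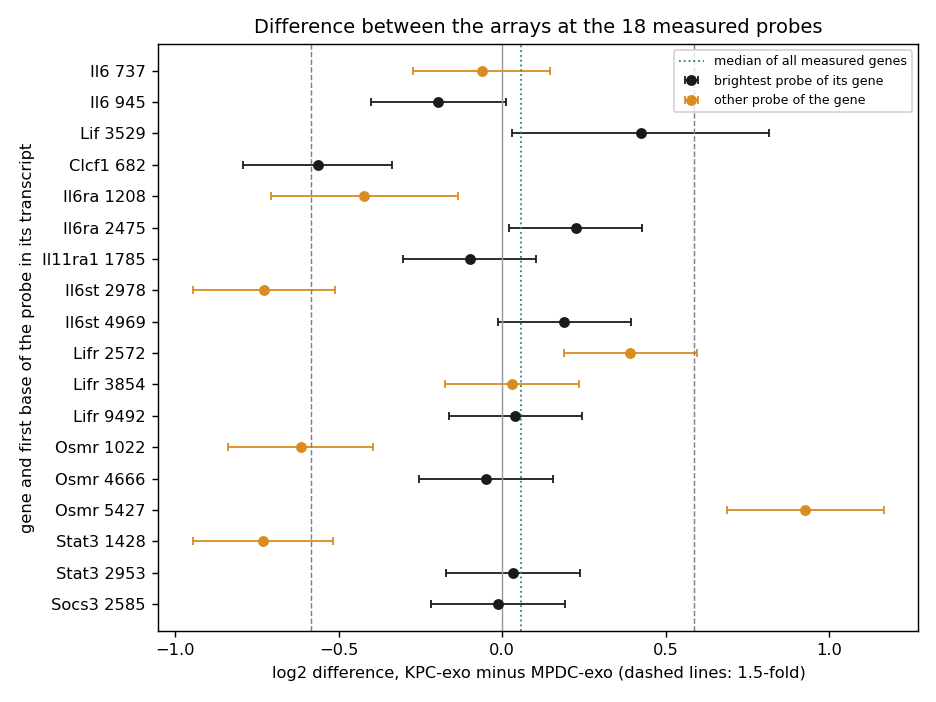
Log2 difference, KPC-exo minus MPDC-exo, at the 18 measured probes, with bars of 1 standard error from the scanner's error model. Black points are the brightest probe of a gene, all between -0.56 and 0.42, and orange points are the other probes, which include the 4 past the dashed 1.5-fold lines, from -0.73 to 0.93.

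The 3 lower probes of Il6st, Osmr and Stat3, and the one of Il6ra, lay upstream of the bright probe of their gene. In Il6ra the probe at base 1208 differed by -0.42 and that at base 2475 by 0.22. In Il6st base 2978 differed by -0.73 and base 4969 by 0.19, and in Osmr base 1022 by -0.62 and base 4666 by -0.05. In Lifr, whose probes from bases 3854 and 9492 were both bright, the differences were 0.03 and 0.04. The upstream probe was thus lower by 0.57 to 0.92 on the log2 scale in Il6ra, Il6st and Osmr, and by 0.01 in Lifr. In Stat3 the upstream probe differed by -0.73 and the bright one by 0.03. Pairs were formed by the transcript each probe is named after, which differs between these Stat3 probes, so Stat3 is not among the pairs. Not every upstream probe was lower: the Osmr probe nearest the gene's 5′ end differed by 0.93, and the Lifr probe upstream of the other 2 in the genome by 0.39. Neither is listed for the RefSeq transcript of the other probes, so they form no pair here. In Il6 both probes are listed for the same RefSeq transcript, and the upstream one was the higher. The Il6 probe at base 737 differed by -0.06 ± 0.21 and that at base 945 by -0.20 ± 0.21. These probes lie less than 500 bases apart, under the least distance set for a pair, so Il6 is not among the pairs.

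A lower upstream probe was also common across the array. Of 2867 RefSeq transcripts with 2 measured probes at least 500 bases apart, the upstream probe was the lower in 1922 (67.0%). Its median log2 difference was -0.15, against 0.04 for the downstream probe. Where the upstream signal lay between -3 and -1, as in Il6ra, Il6st and Osmr, these medians were -0.26 and 0.05 over 1114 transcripts. Where the upstream signal was over 1, as in Lifr, they were -0.01 and 0.01 over 645 transcripts. Among 401 transcripts whose probes had signals within 1 log2 unit of each other, the medians were -0.01 and 0.03. Among 351 transcripts whose upstream probe was the brighter, they were 0.02 and 0.07, and among 254 with a downstream signal at or under -1, they were -0.05 and 0.03. The part of position or brightness in the members' differences was not tested. With probes at least 1000 bases apart the medians were -0.19 and 0.04 over 1879 transcripts. Transcripts are not independent replicates, and these counts describe 1 pair of arrays.

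**Figure D3:**
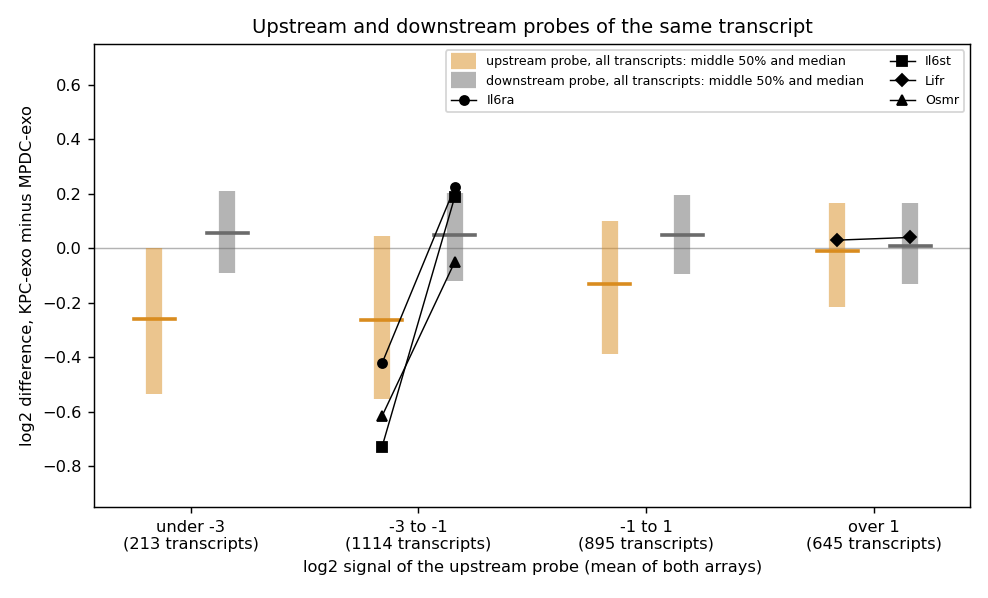
Log2 difference, KPC-exo minus MPDC-exo, of the upstream (orange) and downstream (grey) probe of 2867 transcripts, grouped by the upstream probe's signal. Bars span the middle 50% of transcripts and lines mark the medians, which for upstream probes run from -0.26 at dim signals to -0.01 at signals over 1. Black symbols are the probe pairs of Il6ra, Il6st, Osmr and Lifr.

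The rest of the pathway was read from 3 lists at each gene's brightest probe. Of 14 further ligands and receptors of the family, 13 had a probe under the name used and 7 were measured, with a median log2 difference of -0.04. Of these 7, 1 was at least 1.5-fold higher and 0 lower, where 7.38% of all measured genes passed in either direction. Ctf1, cardiotrophin 1, had a log2 signal of 1.46 on the KPC-exo array and 0.85 on the MPDC-exo array. It was 1.53-fold higher (0.61 ± 0.20), or from 0.52 to 0.64 over the alternatives other than the spike-in scaling, which lies on both sides of the threshold. Il11, interleukin 11, differed by 0.43 ± 0.22, or 0.18 with normexp, and Il12a by 0.04. The local background of the Il11 spot was flagged on both arrays. Cntf, ciliary neurotrophic factor, differed by -0.25 ± 0.20, Il27 by -0.11 and Il27ra by -0.04. Osm, Ctf2, Cntfr, Ebi3, Il31 and Il31ra were well above background on neither array, so the receptor Osmr was measured without its main ligand and Clcf1 without Cntfr.

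Of 21 kinases, STATs and inhibitors, 20 were measured, with a median log2 difference of 0.04. At least 1.5-fold higher was 1 and lower were 0, where 7.38% of all measured genes passed in either direction. Gab1, an adaptor that links gp130 to other kinase pathways, had a log2 signal of 0.81 on the KPC-exo array and 0.17 on the MPDC-exo array. It was 1.55-fold higher (0.63 ± 0.21) at its 1 probe, and from 0.54 to 0.67 over the same alternatives, again on both sides of the threshold. Stat2, Socs2 and Ptpn6 followed at 0.25, 0.22 and 0.22, the last being -0.19 with normexp. On the lower side were the kinase gene Tyk2 at -0.36 ± 0.21, the phosphatase gene Ptpn11 at -0.13, Grb2 at -0.12 and Pias3, an inhibitor of STAT3, at -0.11. Jak1 and Jak2, the kinases bound to gp130, differed by 0.06 and 0.16 at their brightest probes. The upstream probe of Jak2 differed by -0.90 ± 0.32. It was dim, with a log2 signal of -3.33 on the KPC-exo array and -2.43 on the MPDC-exo array. Its local background was flagged on the KPC-exo array. Stat6 was well above background on neither array.

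Of 35 genes known to respond to STAT3, 28 were measured, with a median log2 difference of 0.01. Of these 28, 0 were at least 1.5-fold apart, where 7.38% of all measured genes were. Vegfa, a growth factor of blood vessels, differed by 0.28 at its brightest probe, and its 3 measured probes ran from -0.36 to 0.44. Ccl2, a chemokine gene, differed by 0.23 and Timp1, an inhibitor of matrix proteases, by 0.20. Birc5, which encodes the division protein survivin, was lowest at -0.45, and its 2 probes were alike at -0.45 and -0.46. The local background of both was flagged on both arrays, so Birc5 has no value when such spots are left out. Saa2, an acute phase protein gene with near-identical copies, differed by -0.32, Hif1a by -0.24 and Fbxo32, the ubiquitin ligase of muscle atrophy, by -0.24. Icam1, Fgg, Fgb, Fga, Lrg1, A2m and Serpina3n were well above background on neither array. Among the 13 transcripts of these lists with probes at least 500 bases apart, 2 of them of Bcl2l1, the upstream probe was the lower in 11 (84.6%). Across the array it was the lower in 67.0% of 2867 transcripts. The 11 include those of Junb (-0.76 upstream, -0.10 downstream), Irf1 (-0.52 upstream, 0.02 downstream) and Il4ra (-0.62 upstream, 0.16 downstream). They also include a transcript of Bcl2l1 (-0.42 upstream, 0.04 downstream). Its 2 probes start 1144 bases apart in the transcript, but their mm9 positions overlap, so the distance of that pair is uncertain. The upstream probe was the higher in Vegfa (0.44 upstream, 0.28 downstream) and in 1 transcript of Bcl2l1 (-0.22 upstream, -0.29 downstream).

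**Figure D4:**
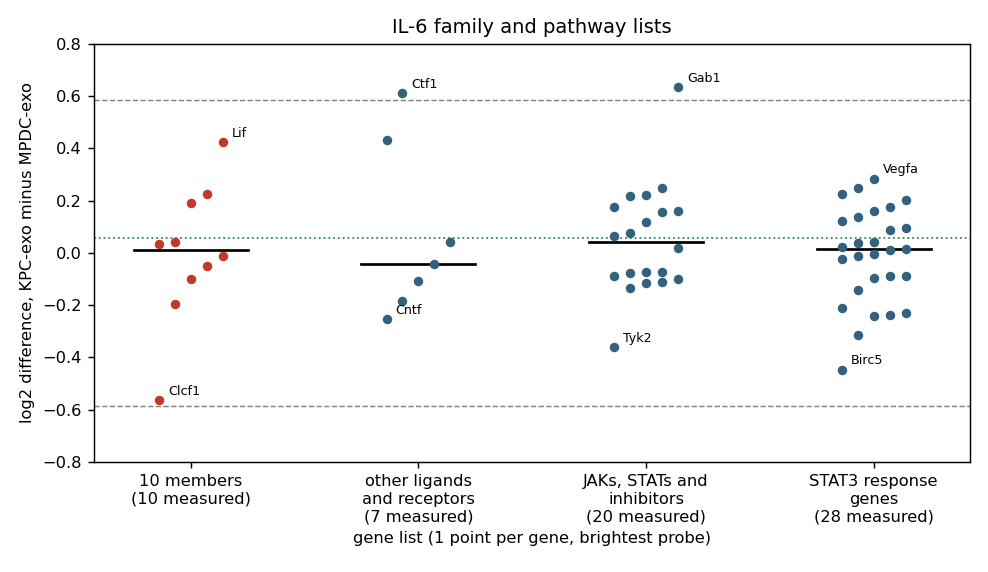
Log2 difference, KPC-exo minus MPDC-exo, of each measured gene at its brightest probe for the 10 members and 3 pathway lists, with black bars at the list medians (0.01, -0.04, 0.04 and 0.01). The dotted line is the median of all measured genes (0.06) and the dashed lines are 1.5-fold, which Ctf1 and Gab1 alone pass.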

How the data were processed

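Total RNA was labelled with Cy3 and hybridised to 1-colour Agilent arrays, 1 per group. Per the file headers, Agilent Feature Extraction 10.7.1.1 subtracted background and spatial trends and replaced small values by a surrogate, and the intensity of each spot was deposited in linear units without scaling between arrays. The authors' series value table holds log2 values (r = 1.00 with each array's scanner values, both column medians 4.88, not centred per gene), whose making is not stated in the sources used here. It served as an alternative.

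From the scanner files, processed signals were put on the log2 scale without spots marked as non-uniform or population outliers (166 on the KPC-exo array, 102 on the MPDC-exo array). Repeated spots were averaged per probe and the 75th percentile of the array was subtracted. No spot was saturated. A gene was read at its brightest measured probe. Per the files' annotation columns, positions refer to mm9. No test was run, since each group has 1 array, and the number of arrays limits the precision. Different probes of a gene had a pooled SD of 0.36 in log2 difference over 5767 genes.

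All 10 members are named with every probe, and from each list all genes past 1.5-fold and the 4 largest differences in each direction, less a few items not reported here; Jak1, Jak2 and the genes named for their probe positions were chosen after their values were seen. The members and lists were chosen with earlier results of these data known. The computation was tested on simulated data. Sequences are from the scanner files and from RefSeq (GRCm38.p6). Alternatives covered scaling, background correction (normexp with an offset of 50 units), filters, flagged spots, the gene summary and the fold. Python 3.11.15, numpy 2.4.6, pandas 2.3.3, matplotlib 3.10.9, R 4.3.3 and limma 3.58.1 were used.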

Additional observations from a re-analysis of the deposited data

How the results depend on the processing

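No paired analysis was possible because each group has 1 array, and for the same reason no array could be left out. Centring on 7 spike-in probes raised all log2 differences by 1.00. It gave a member median of 1.01, 9 members at least 1.5-fold apart (93.7% of all genes were), and positive differences at the lower probes of Il6st (0.27), Osmr (0.38) and Stat3 (0.27), so all differences in the report are relative to the arrays' own 75th percentiles. A stricter filter left 8 members, without Lif and Clcf1. Under the other alternatives the member median ran from -0.10, with the mean over a gene's probes, to 0.01. Members at least 1.5-fold apart numbered 0 in the main values and 1 when the arrays were centred on the median, scaled on detected probes, normalized by cyclic loess (Clcf1 in each) or freed of spots with flagged local background (Stat3, with Socs3 left without a value), where 7.25% to 8.09% of all genes passed, 2 at a lower threshold (Lif and Clcf1, where 25.4% of all genes passed) and 0 at 2-fold (1.92% of all genes). Of 153 values of single genes and probes under an alternative, 132 moved by less than their error. Many of them could hardly move: the filters on dim probes left the value of each remaining member unchanged. Centring on the median or scaling on detected probes shifted all values alike, by less than any error. Outside the spike-in scaling 7 moved by more, among them Il6ra (-0.10), Il6st (-0.27) and Stat3 (-0.35) with the mean over probes. The upstream and downstream medians, and the values of probes past 1.5-fold, were recomputed under alternatives chosen after seeing the data, where the upstream median stayed below the downstream one in each, with medians of -0.18 and 0.08 with normexp. Dim signal limits Lif and the probes below a log2 signal of about -1.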
